A study of Mus musculus with 4 samples.

Results

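The genes described here belong to the integrated stress response, which works through the transcription factor ATF4, and to the unfolded protein response of the endoplasmic reticulum (ER). They were chosen by name, as 36 gene symbols of the deposited expression table, which has 55339 rows. Of these, 19 were placed in the ATF4 or amino acid branch and 17 in the ER branch, and all 36 had values high enough to be tested. The RNA came from leukemia cells of C57BL/6 mouse bone marrow and was selected for poly(A) tails, in a study that asks how the mRNA-binding protein YBX1 supports myeloid leukemia. There were 2 libraries of genotype WT (replicates 4 and 5) and 2 of genotype YBX1-/-, titled cKO (replicates 1 and 3), called knockout below. In the titles RNA-seq is followed by the number 2 for knockout replicate 3 and by 1 for the other libraries. The labels give no age of the mice, no oncogene and no Cre driver, and do not say whether replicates are separate mice. The p-values therefore rest on the spread between these libraries, which may be technical. In the test used, each gene's variance is also moderated, that is, drawn toward a trend over all genes.

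Cells that run short of amino acids, heme or ER folding capacity, or that sense double-stranded RNA, phosphorylate the translation factor eIF2. Most protein synthesis then slows while ATF4 protein is made from an mRNA already present, so that ATF4 activity is set to a large part by translation rather than by the amount of Atf4 mRNA. ATF4 switches on genes for amino acid synthesis and uptake and, with CHOP (the product of Ddit3), genes that end or enforce the stress state. The ER has 2 further sensors: IRE1, encoded by Ern1, splices Xbp1 mRNA, and ATF6 is cut to release a transcription factor. Both induce chaperones, disulfide isomerases and genes of ER-associated degradation. Myeloid precursors that fill granules with secreted proteins carry a large ER load.

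The DNA letters through which these factors act could be seen in front of several members. RefSeq promoter windows of GRCm38.p6, from 250 bases before to 50 after a start site, were matched by symbol for 33 of the 36 genes, with Slc7a5, Atf6 and Manf unmatched. The ER stress element, read here as CCAAT, then 9 bases of any kind, then CCACG, on either strand, was in the windows of 6 of 15 matched ER branch genes and of 0 of 18 matched ATF4 branch genes. Of all 32851 windows, 0.119% held it. The 6 stretches below are shown because their genes are the chaperones and folding enzymes whose levels are compared further on. Each is written 5′ to 3′ along the gene, with 20 bases on either side and the element in capitals.
Hspa5, chr2:34772005-34772063, plus strand: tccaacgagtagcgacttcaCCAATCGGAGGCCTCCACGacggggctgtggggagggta
Hsp90b1, chr10:86705513-86705676, minus strand: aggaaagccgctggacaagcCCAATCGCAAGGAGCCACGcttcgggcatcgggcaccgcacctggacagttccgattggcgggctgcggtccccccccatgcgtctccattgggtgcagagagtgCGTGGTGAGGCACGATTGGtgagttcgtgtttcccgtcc
Canx, chr11:50325780-50325838, minus strand: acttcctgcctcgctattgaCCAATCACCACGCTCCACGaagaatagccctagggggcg
Calr, chr8:84847055-84847113, minus strand: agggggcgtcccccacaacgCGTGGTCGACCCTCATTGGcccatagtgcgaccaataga
Pdia6, chr12:17266471-17266529, plus strand: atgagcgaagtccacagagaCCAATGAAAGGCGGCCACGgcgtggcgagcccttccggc
Dnajc3, chr14:118937807-118937865, plus strand: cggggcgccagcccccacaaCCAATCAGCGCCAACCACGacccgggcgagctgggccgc
Hsp90b1 had 2 elements, of which the second reads on the opposite strand, as does the element of Calr.

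The C/EBP-ATF element, to which ATF4 binds as a dimer with C/EBP proteins, was searched as TTGCATCA on both strands. It was in the windows of 4 of 18 ATF4 branch genes and of 1 of 15 ER branch genes, against 0.895% of all windows. The element is again in capitals.
Slc7a11, chr3:50443633-50443699, minus strand: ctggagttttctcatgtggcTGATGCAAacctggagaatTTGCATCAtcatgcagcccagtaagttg
Chac1, chr2:119351029-119351076, plus strand: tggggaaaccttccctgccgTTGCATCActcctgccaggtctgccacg
Nupr1, chr7:126625553-126625600, minus strand: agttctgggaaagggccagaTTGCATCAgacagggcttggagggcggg
Atf3, chr1:191183416-191183463, minus strand: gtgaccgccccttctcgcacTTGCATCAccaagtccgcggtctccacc
Herpud1, chr8:94386297-94386344, plus strand: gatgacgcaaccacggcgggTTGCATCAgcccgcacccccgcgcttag
Slc7a11 carries the element on both strands, ending 59 and 40 bases before its start site. The UPR element TGACGTGG was in no member's window and in 0.676% of all windows. A match of letters describes the window and does not show that a factor binds there.

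The deposited values are normalized log2 expression, on which a step of 1 is a doubling. They carry no correction for gene length that the sources used here describe, so levels are compared between libraries and not between genes. The table holds no counts, and library depth is therefore unknown. Ybx1, the targeted gene, was at 19.70 and 10.002 in WT replicates 4 and 5 and at 7.29 and 8.33 in knockout replicates 1 and 3, with a limma difference of -7.04 (SE 3.49, adjusted p = 0.826) that was -2.19 (SE 0.61) without WT replicate 4. Myeloid markers were present in each library, with all 9 listed markers passing the value filter. Some markers of other cell types also had values, such as the B cell receptor chain gene Cd79b (5.16 to 7.41 over the 4 libraries), Sdc1 (5.78 to 7.31) and the endothelial marker Pecam1 (6.10 to 6.93), and their part in the results was not tested. Mzb1, Cd3e, Cd3g, Cd4, Cd8a, Gp1bb and Lepr were listed at 0 in all libraries. The summed level of the B and plasma cell markers, cells with a large ER, lay between 7.64 and 8.43 (log2 of the linear sum) in the 4 libraries, with the antibody joining chain gene Jchain between -0.12 and 0.74.

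WT replicate 4 stood apart over the whole table, and the members split in it. Over all 17303 genes tested Pearson's r of WT replicate 4 with the other libraries was 0.69 to 0.71, and the other libraries had 0.93 to 0.96 with each other. Across the 36 members the values were 0.57 to 0.61 and 0.97 to 0.98. These are correlations across genes, which are not independent replicates. In 13 of the 36 it lay over 3 log2 above the highest of the other libraries, by 6.88 to 11.40, where 8.98% of all genes tested did. In another 12 it lay over 1 log2 below the lowest of them, where 22.6% of all genes did. The 13 high members held 6 genes of the ATF4 branch and 7 of the ER branch and were all between 19.03 and 22.11 in WT replicate 4, against 7.91 to 14.24 in the other libraries. The normalization behind the deposited values is not given in the sources used here, so whether these values of WT replicate 4 are measured levels is not known, and every difference that includes it carries that doubt. What gave it these values was not tested. Each limma difference below is therefore given beside the one without WT replicate 4, which equals the knockout mean minus WT replicate 5.

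**Figure D1:**
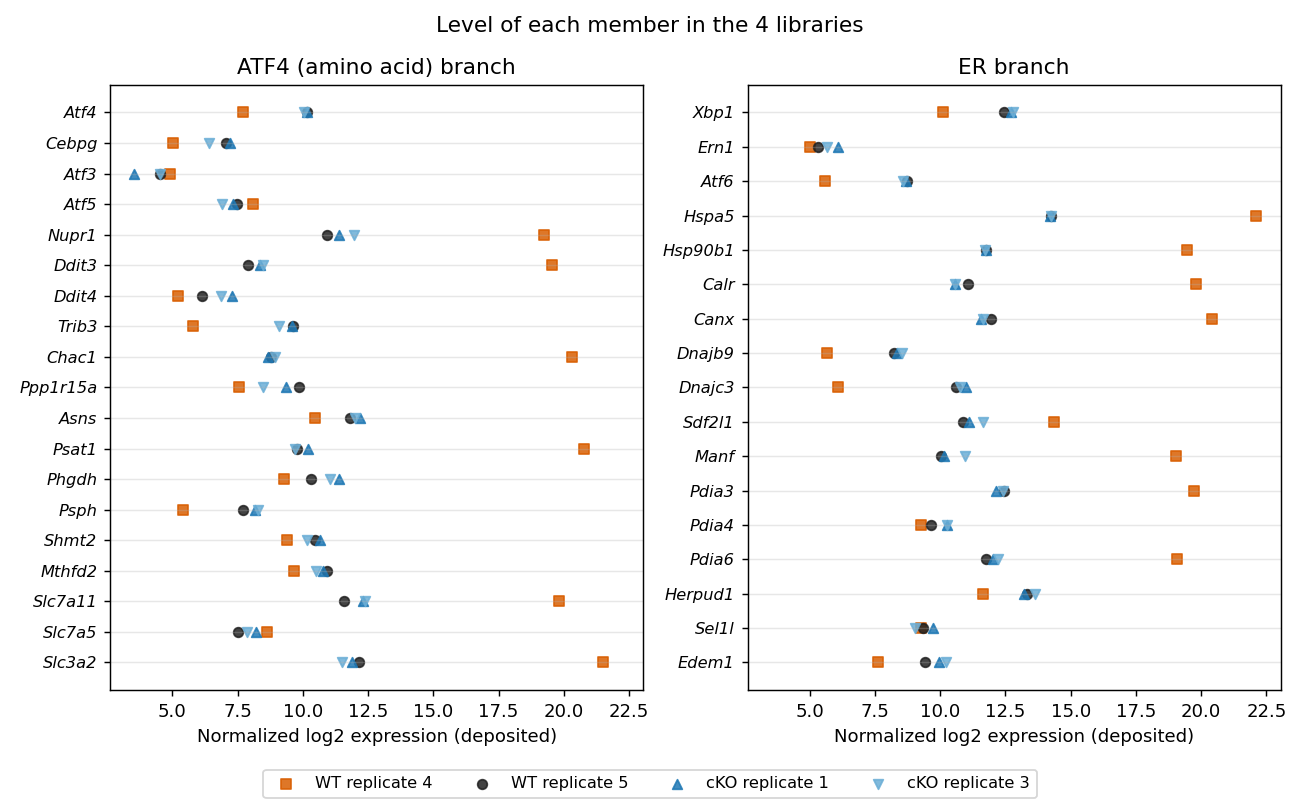
Normalized log2 expression (x axis) of the 19 ATF4 branch genes (left) and the 17 ER branch genes (right) in each library, 1 point per library. WT replicate 4 (orange squares) lies between 19.03 and 22.11 for 13 genes and below the other libraries for many others, while WT replicate 5 and the knockout libraries lie close together.

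No member passed the test between knockout and WT. At the threshold of an adjusted p under 0.05, limma called 0% of the 17303 genes (0 genes), and the adjusted p of the 36 members lay between 0.826 and 0.988. At an unadjusted p under 0.05 there were 0 members and 651 of all genes. Without WT replicate 4 limma again called 0 genes, with 1 member (Slc7a11) and 1799 of all genes at an unadjusted p under 0.05. The spread in that fit is the one between the knockout libraries, moderated over all genes, and the lone WT library is taken to vary as they do. In bulk RNA, fewer cells of a type and less RNA per cell cannot be told apart. Without WT replicate 5 it called 25 of the 36 members, 11 higher and 14 lower in knockout, against 14.2% and 14.5% of all genes. All 13 members that stood over 3 log2 high in WT replicate 4 were among the 14 lower ones, together with Sdf2l1. With either knockout library left out, limma called 0 members. In 10 members both knockout libraries were higher than both WT libraries (17.3% of all genes), and in 6 they were lower (18.8% of all genes). In each of the 10, WT replicate 4 was the lower WT library, and in each of the 6 the higher. WT replicate 5 was thus the nearer WT library in all of them, and it alone set how close the groups came. Of these members, Ern1 and Pdia4 alone had a gap between the groups larger than the difference between their WT libraries.

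Against WT replicate 5, a single library, the members lay on both sides. Both knockout values were above WT replicate 5 in 17 members, below it in 11 and on either side of it in 8, against 41.8% above and 33.4% below over all genes. The knockout mean was within 0.5 log2 of WT replicate 5 in 21 members (58.3%, against 48.5% of all genes), and the differences ran from -0.96 for Ppp1r15a to 0.95 for Ddit4. The median difference was 0.03 over the ATF4 branch, 0.20 over the ER branch and 0.07 over all genes. With both WT libraries the medians were 0.18, 0.06 and -0.09, and with a filter of log2 5 they were 0.27, 0.06 and 0.60. The branch medians changed sign, to -0.18 and -0.28, without knockout replicate 1. After median centring, which shifts the difference of every gene alike, the ER branch median was -0.077 and that over all genes -0.23.

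**Figure D2:**
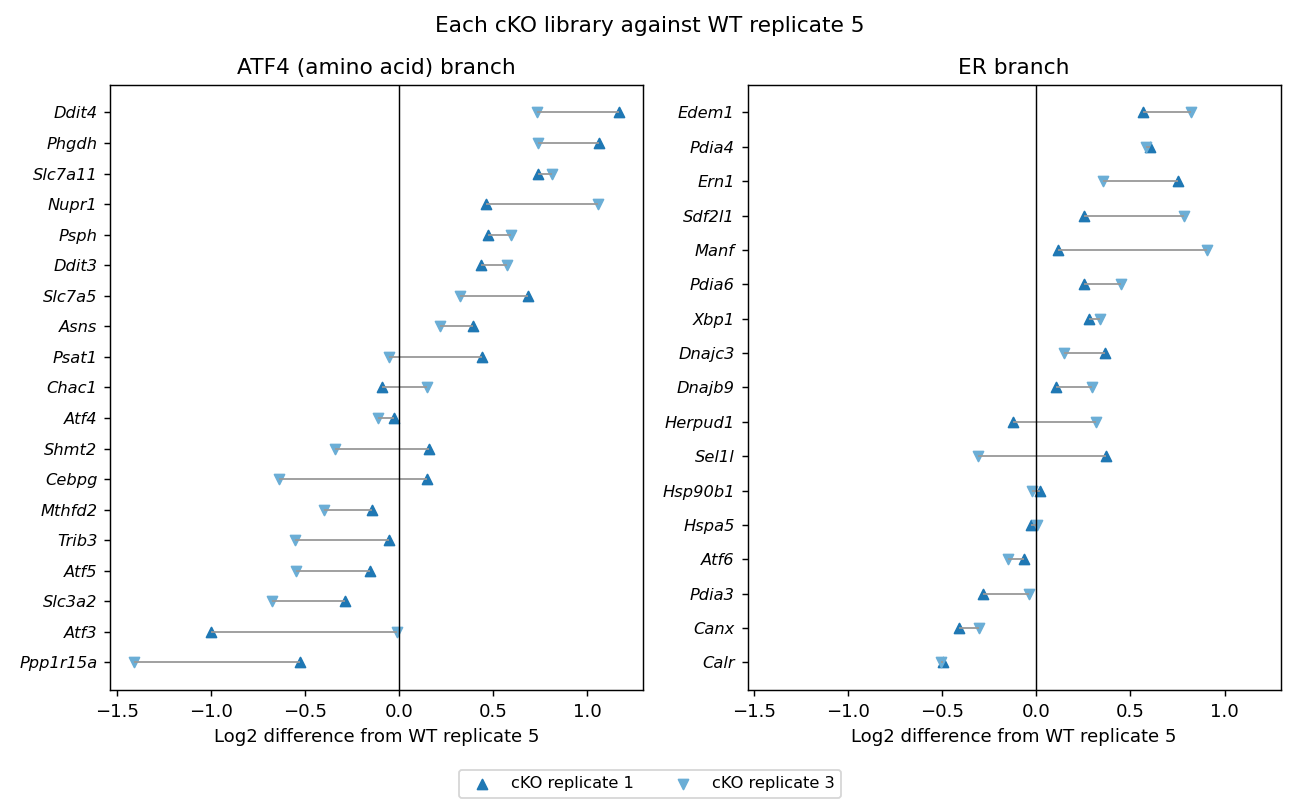
Log2 difference of knockout replicates 1 and 3 from WT replicate 5 (x axis) for each member, sorted by the mean of both, with a grey line joining the pair. Ddit4, Phgdh and Slc7a11 lie farthest to the right in the ATF4 branch and Ppp1r15a farthest to the left, and in the ER branch Hspa5 and Hsp90b1 lie next to 0.

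Among the transcription factors of the ATF4 branch, Atf4 mRNA was level in 3 of the 4 libraries. Atf4 (chromosome 15, 80255184 to 80257541, plus strand, GRCm38) was at 7.69 and 10.17 in WT replicates 4 and 5 and at 10.14 and 10.06 in knockout replicates 1 and 3. WT replicate 4 was the low library, and the other 3 lay within 0.11 log2. The limma difference of 1.17 (SE 1.17, adjusted p = 0.826) became -0.07 (SE 0.18) without WT replicate 4. The values bear on Atf4 mRNA and not on ATF4 protein.

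Ddit3 (chromosome 10, 127290774 to 127296288, plus strand), which encodes the death-promoting factor CHOP, was at 19.53 and 7.91 in WT and at 8.34 and 8.48 in knockout. Both knockout libraries lay between the WT libraries, and the limma difference changed sign with WT replicate 4 left out, from -5.31 (SE 4.02, adjusted p = 0.826) to 0.50 (SE 0.23). Nupr1, a small stress-induced chromatin protein, followed the same pattern at 19.25 and 10.91 in WT and 11.38 and 11.97 in knockout, where the same step took the difference from -3.41 (SE 4.18, adjusted p = 0.842) to 0.76 (SE 0.37), and quantile normalization of all libraries gave 0.81. Against WT replicate 5 the Nupr1 level in knockout was 1.69-fold.

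The remaining factors lay on the low side or overlapped. Atf5, a relative of ATF4 linked to the mitochondrial stress response, was at 8.09 and 7.47 in WT and 7.32 and 6.92 in knockout, and the knockout libraries lay below the WT libraries (limma difference -0.66, SE 0.67, adjusted p = 0.826, and -0.35, SE 0.34, without WT replicate 4). Atf3, an ATF4 target and repressor, was at 4.90 and 4.55 in WT and 3.55 and 4.54 in knockout. Its knockout values differed from each other by 0.99, more than the limma difference of -0.68 (SE 0.79, adjusted p = 0.833) or of -0.50 (SE 0.79) without WT replicate 4, and knockout replicate 3 all but met WT replicate 5. Cebpg, the C/EBP protein that pairs with ATF4, was at 5.03 and 7.05 in WT and 7.20 and 6.42 in knockout, and the groups overlapped.

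Of the stress effectors that ATF4 and CHOP switch on, Ddit4 lay higher in both knockout libraries. Ddit4 (chromosome 10, 59949669 to 59951834, minus strand) encodes REDD1, an inhibitor of mTORC1. It was at 5.23 and 6.14 in WT and at 7.31 and 6.87 in knockout. The gap of 0.95 (SE 0.38) to WT replicate 5, a 1.93-fold level, exceeded the difference of 0.44 between the knockout libraries. The WT libraries differed by 0.91, more than the gap of 0.73 between the groups. Limma did not call Ddit4 (difference 1.41, SE 0.71, adjusted p = 0.826).

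Ppp1r15a, which encodes GADD34, the subunit that lets a phosphatase restore eIF2, lay on the other side. It was at 7.57 and 9.87 in WT and at 9.35 and 8.46 in knockout, 1.95-fold below WT replicate 5 on average but above WT replicate 4. Trib3, a pseudokinase that restrains ATF4, was at 5.80 and 9.63 in WT and 9.58 and 9.08 in knockout. Chac1, which degrades glutathione, was at 20.33 and 8.77 in WT and 8.69 and 8.93 in knockout, so that the knockout libraries lay on either side of WT replicate 5. The 4 effectors lay on both sides of WT replicate 5.

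The enzymes of serine synthesis make serine from a glycolytic intermediate in 3 steps, catalysed by PHGDH, PSAT1 and PSPH. Phgdh (chromosome 3, 98313170 to 98339990, minus strand), the first of them, was at 9.30 and 10.32 in WT and at 11.38 and 11.06 in knockout. Both knockout libraries lay above both WT libraries, 1.87-fold above WT replicate 5 (0.90, SE 0.25), with a limma difference of 1.41 (SE 1.14, adjusted p = 0.826). Psph, the last step, was at 5.39 and 7.70 in WT and 8.18 and 8.30 in knockout, also without overlap (limma difference 1.69, SE 0.98, adjusted p = 0.826). The knockout pair differed by 0.12 and lay 0.53 above WT replicate 5. Psat1, the middle step, did not follow: it was at 20.78 and 9.77 in WT and 10.22 and 9.72 in knockout, and the groups overlapped.

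Asns (chromosome 6, 7675169 to 7693254, minus strand) encodes asparagine synthetase, whose level matters to leukemia cells treated with asparaginase. It was at 10.47 and 11.80 in WT and at 12.19 and 12.01 in knockout. The knockout values lay above both WT values, by 0.30 (SE 0.21) over WT replicate 5, and limma did not call the difference of 0.97 (SE 1.60, adjusted p = 0.870). The mitochondrial enzymes that pass serine carbon to folate overlapped between the groups. Shmt2 was at 9.40 and 10.49 in WT and 10.65 and 10.15 in knockout. Mthfd2 was at 9.67 and 10.91 in WT and 10.77 and 10.51 in knockout.

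Of the amino acid transporter genes, Slc7a11 and Slc7a5 were above WT replicate 5 in both knockout libraries and Slc3a2 was below it, while with both WT libraries the limma differences of these 3 genes were all negative, and none was called. Slc7a11 (chromosome 3, 49892526 to 50443614, minus strand) encodes xCT, which imports cystine for glutathione synthesis, and carries the pair of C/EBP-ATF elements shown above. It was at 19.82 and 11.58 in WT and at 12.31 and 12.39 in knockout. The knockout libraries agreed within 0.08 and lay 0.78 (SE 0.19) above WT replicate 5, a 1.71-fold level with an unadjusted limma p of 0.0376 and an adjusted p of 0.477 in these 3 libraries. With WT replicate 4 the limma difference was -3.35 (SE 5.05, adjusted p = 0.865), and after quantile normalization of all libraries 0.90. Slc7a5, the LAT1 transporter of large neutral amino acids, was at 8.63 and 7.54 in WT and 8.22 and 7.86 in knockout, between the WT libraries (limma difference -0.045, SE 0.76, adjusted p = 0.988, and 0.50, SE 0.30, without WT replicate 4).

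Slc3a2 encodes the heavy chain that carries both transporters to the cell surface. It was at 21.48 and 12.16 in WT and at 11.88 and 11.49 in knockout, below both WT libraries. The limma difference was -5.14 (SE 5.66, adjusted p = 0.830), and without WT replicate 4 it was -0.48 (SE 0.28). Whether the differences of the 3 genes differ from one another was not tested.

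Of the ER branch sensors and factors, Xbp1 and Ern1 were above WT replicate 5 in both knockout libraries and Atf6 was below it. Xbp1 (chromosome 11, 5520659 to 5525893, plus strand), whose spliced mRNA encodes a main factor of the response, was at 10.10 and 12.45 in WT and at 12.73 and 12.79 in knockout. Both knockout values lay above both WT values, with a limma difference of 1.48 (SE 1.95, adjusted p = 0.852) and 0.31 (SE 0.19) without WT replicate 4. Values per gene do not separate spliced from unspliced Xbp1. Ern1 was at 5.0003 and 5.33 in WT and 6.08 and 5.68 in knockout, again without overlap (limma difference 0.72, SE 0.68, adjusted p = 0.826, and 0.55, SE 0.46, without WT replicate 4). Atf6 was at 5.57 and 8.74 in WT and 8.68 and 8.59 in knockout, and the groups overlapped.

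The main ER chaperones had nearly the same level in 3 of the 4 libraries. Hspa5 (chromosome 2, 34771970 to 34777547, plus strand) encodes BiP, the chaperone that also holds the ER sensors inactive. It was at 22.11 and 14.23 in WT and at 14.20 and 14.24 in knockout, so that WT replicate 5 and both knockout libraries fell within 0.04 log2. The limma difference was -3.95 (SE 13.42, adjusted p = 0.934), without WT replicate 4 it was -0.01 (SE 0.23), and after quantile normalization 0.29. Hsp90b1, which encodes the ER member of the HSP90 family, was at 19.44 and 11.74 in WT and 11.76 and 11.71 in knockout (limma difference -3.85, SE 4.39, adjusted p = 0.831, 0.00, SE 0.18, without WT replicate 4, and 0.44 after quantile normalization). A difference of this size from WT replicate 5 is small beside limma's moderated standard error, and rests on a single WT library.

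The lectin chaperones of glycoprotein folding, calreticulin and calnexin, lay lower in knockout. Calr (chromosome 8, 84841850 to 84846934, minus strand) was at 19.79 and 11.06 in WT and at 10.56 and 10.55 in knockout. The knockout libraries differed by 0.01 and lay 1.42-fold below WT replicate 5 (-0.50, SE 0.17), with a limma difference of -4.87 (SE 3.91, adjusted p = 0.826) over all libraries. Canx was at 20.41 and 11.96 in WT and 11.55 and 11.65 in knockout, 1.28-fold below WT replicate 5, with a limma difference of -4.58 (SE 4.87, adjusted p = 0.829) that was -0.36 (SE 0.19) without WT replicate 4. The oxidoreductase Pdia3, which works with both lectins, was at 19.71 and 12.43 in WT and 12.15 and 12.39 in knockout, also below both WT libraries but by 0.04 for knockout replicate 3 (limma difference -3.80, SE 5.16, adjusted p = 0.856, -0.16, SE 0.23, without WT replicate 4, and 0.49 after quantile normalization). The GENCODE annotation holds a processed pseudogene named for Calr and one named for Phgdh, and whether reads were shared with them was not tested.

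The other isomerases were above WT replicate 5. Pdia4 (chromosome 6, 47796141 to 47813430, minus strand) was at 9.28 and 9.66 in WT and at 10.26 and 10.24 in knockout. Its WT libraries differed by 0.38 and its knockout libraries by 0.02, and the groups were 0.58 apart, more than either. WT replicate 4 lay near WT replicate 5 for Pdia4, and the standard deviation was 0.27 in WT and 0.01 in knockout. Limma did not call it (difference 0.78, SE 0.91, adjusted p = 0.834, and 0.59, SE 0.18, without WT replicate 4). That SE is drawn toward a trend over all genes, those that stood apart in WT replicate 4 included. It is therefore not the spread of Pdia4 alone. Pdia6 was at 19.09 and 11.75 in WT and 12.01 and 12.20 in knockout.

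The co-chaperones and secreted folding factors lay above WT replicate 5 in both knockout libraries. Dnajb9, which delivers misfolded proteins to BiP, was at 5.68 and 8.24 in WT and 8.35 and 8.54 in knockout (limma difference 1.49, SE 1.06, adjusted p = 0.826). Dnajc3, an inhibitor of the eIF2 kinase PERK and a BiP co-chaperone, was at 6.09 and 10.62 in WT and 10.99 and 10.77 in knockout (limma difference 2.52, SE 1.71, adjusted p = 0.826). For both genes the groups did not overlap, but the differences without WT replicate 4 were 0.20 and 0.26. Sdf2l1, a BiP-associated protein, was at 14.36 and 10.86 in WT and 11.11 and 11.64 in knockout. Manf, a secreted ER stress factor, was at 19.03 and 10.03 in WT and 10.15 and 10.94 in knockout, where the knockout pair differed by 0.79.

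Among genes of ER-associated degradation, which extracts misfolded proteins to the proteasome, Edem1 was above WT replicate 5 in both knockout libraries. Edem1 (chromosome 6, 108828641 to 108859356, plus strand), which picks out misfolded glycoproteins, was at 7.63 and 9.40 in WT and at 9.96 and 10.22 in knockout. Both knockout libraries were above both WT libraries, 1.62-fold above WT replicate 5 (0.69, SE 0.23), with a limma difference of 1.58 (SE 0.99, adjusted p = 0.826). The WT libraries differed by 1.77, more than the gap of 0.57 between the groups. Herpud1, an organizer of the extraction complex, was at 11.65 and 13.32 in WT and 13.20 and 13.64 in knockout, on either side of WT replicate 5. Sel1l, the adaptor of the ubiquitin ligase, was at 9.28 and 9.34 in WT and 9.71 and 9.03 in knockout. Its WT libraries agreed within 0.06 while its knockout libraries differed by 0.68 around them.

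The genes with promoter elements did not share a direction against WT replicate 5. Of the 6 genes with an ER stress element, both knockout values were above WT replicate 5 in 2 (Pdia6, Dnajc3) and below it in 2 (Calr, Canx). Over all genes tested the shares were 41.8% above and 33.4% below. The median difference of the 6 genes was -0.01, with a range of -0.50 to 0.35. In WT replicate 4, 5 of the 6 were over 3 log2 high, against 13 of the 36 members and 8.98% of all genes, and Dnajc3 was low. Of the 5 genes with a C/EBP-ATF element, 2 were above (Slc7a11, Nupr1) and 1 below (Atf3), with a range of -0.50 to 0.78. The same shares of all genes apply to these counts, and both lists are small.

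In the authors' deposited table, 6 of the 36 members had an adjusted p under 0.05 with a fold change toward lower in knockout, against 3.83% of the 20610 genes with a deposited fold change, and 0 were called higher, against 0.131%. The header of that column names WT first, and its sign was read as knockout over WT because it follows the sample columns for most genes. The targeted gene Ybx1 had a log2 fold change of -9.50 in the authors' deposited table (adjusted p = 3.06e-04). It too stood high in WT replicate 4. Log2 fold changes in the authors' deposited table were -8.62 for Slc3a2 (adjusted p = 3.65e-04), -8.18 for Calr (adjusted p = 0.00111) and -6.67 for Hsp90b1 (adjusted p = 0.00670). The values were -6.60 for Hspa5 (adjusted p = 0.00387), -6.67 for Nupr1 (adjusted p = 0.0107) and -6.23 for Slc7a11 (adjusted p = 0.0148) in the authors' deposited table. All 6 are among the 13 members that stood over 3 log2 high in WT replicate 4, and 0 of the other 23 were called. Against WT replicate 5, Slc7a11 and Nupr1 were higher in both knockout libraries, Hspa5 and Hsp90b1 were level, and Calr and Slc3a2 were lower by 0.50 and 0.48 log2.

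Of the other 7 high members, 6 (Ddit3, Chac1, Psat1, Canx, Manf and Pdia3) are listed in the authors' deposited table with a p-value of 1 despite log2 fold changes from -10.45 to -6.18, and Pdia6 with an adjusted p of 0.0681. In all, 9 of the 36 members (25.0%) are listed with a p-value of 1, where 9.01% of the genes tested here with a deposited fold change are. The deposited sign was opposite to that of the sample columns in 5 members (13.9%, against 15.7% of genes tested). Asns, Shmt2 and Herpud1 had deposited log2 fold changes of -4.25, -4.95 and -2.24 in the authors' deposited table, while their sample columns differed by 0.97, 0.45 and 0.93 in the other direction. The others were Ppp1r15a and Slc7a5. Edem1, Ddit4 and Phgdh had deposited log2 fold changes of 1.45, 1.47 and 2.24 in the authors' deposited table, with adjusted p-values of 0.273, 0.609 and 0.213.

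**Figure D3:**
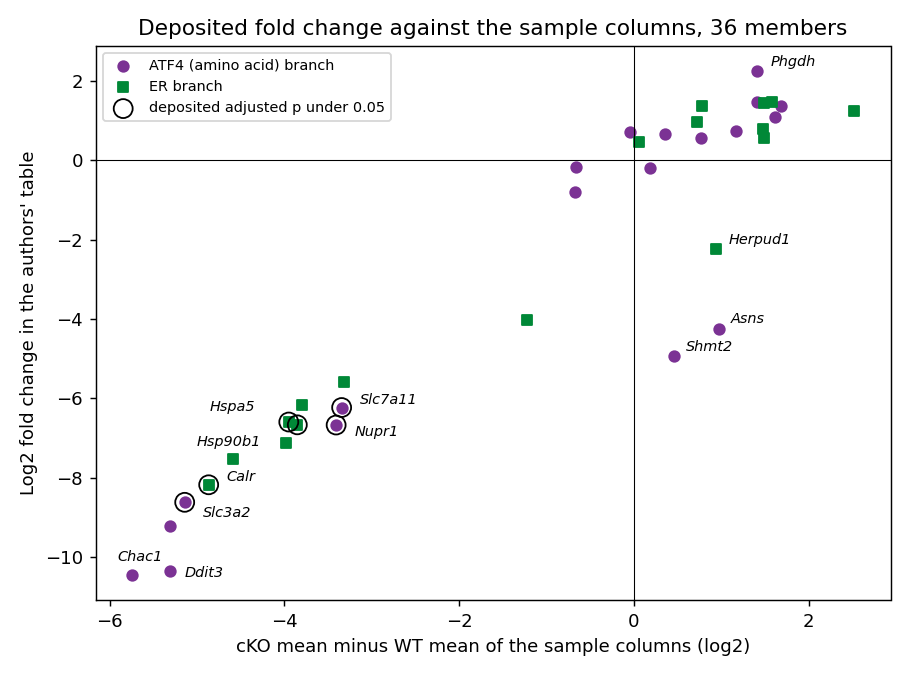
Log2 fold change of each member in the authors' deposited table (y axis) against knockout mean minus WT mean of its sample columns (x axis, log2), with circles around the 6 members whose deposited adjusted p is under 0.05. The circled genes lie at -3.35 or below on the x axis, and Asns, Shmt2 and Herpud1 lie at the lower right, where the signs differ.

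A further 72 genes of the same pathways, listed from general knowledge, gave 71 that could be tested. Limma called 0 of them, and at an unadjusted p under 0.05 there was 1. In 29 of the 71 the knockout libraries were both higher than the WT libraries (17.3% of all genes) and in 6 both lower (18.8% of all genes). Against WT replicate 5 they were both higher in 45 and both lower in 15, against 41.8% and 33.4% of all genes. The median difference was 0.81 over all libraries and 0.36 from WT replicate 5, against -0.09 and 0.07 over all genes. The background depended on the filter. With a filter of log2 5, which kept 59 of these genes, the median over all libraries was 1.02, against 0.60 over all genes kept. WT replicate 4 was over 1 log2 below the other libraries in 29 of the 71 (22.6% of all genes) and over 3 log2 above them in 13 (8.98% of all genes).

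The gene with the unadjusted p under 0.05 was Eif2b5, singled out after its values were seen. It encodes the catalytic subunit of eIF2B, the exchange factor that phosphorylated eIF2 blocks. Eif2b5 was at 5.62 and 8.06 in WT and at 9.59 and 9.72 in knockout, with a limma difference of 2.81 (SE 1.05, adjusted p = 0.826) and 1.59 from WT replicate 5. It had a log2 fold change of 2.80 in the authors' deposited table, with an adjusted p of 0.0302, the 1 gene of the 71 called higher there, against 0.131% of all genes with a deposited fold change. The other eIF2B subunits listed lay the same way: Eif2b1 was at 5.54 and 8.73 in WT and 9.33 and 9.40 in knockout, and Eif2b4 at 7.47 and 8.40 in WT and 8.90 and 9.21 in knockout. Among the kinases of eIF2, Eif2ak4, the amino acid sensor GCN2, was at 4.55 and 3.17 in WT and 5.14 and 4.90 in knockout, and Eif2ak3, which encodes PERK, at 4.53 and 3.49 against 5.15 and 4.44. Eif2ak1, which encodes the heme-regulated kinase HRI, was at 5.56 and 8.04 in WT and 8.43 and 7.92 in knockout, and Eif2ak2, which encodes the double-stranded RNA sensor PKR, at 7.20 and 6.93 against 7.58 and 7.16. Of the 4 kinase genes, Eif2ak4 alone did not overlap between the groups, where 17.3% of all genes lay above and 18.8% below. Its WT libraries differed by 1.38, more than the gap of 0.35 between the groups.

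Lower calls in the authors' deposited table covered 8 of the 71, against 3.83% of all genes with a deposited fold change, all of them in the list of ER folding and degradation genes: Hyou1, Derl1, P4hb, Sec61b, Sec61g, Spcs2, Kdelr2 and Selenos. The ER chaperone gene Hyou1 was at 14.66 and 7.05 in WT and at 7.93 and 8.15 in knockout, and the isomerase gene P4hb at 20.09 and 11.21 in WT and 11.77 and 11.93 in knockout. All 8 stood over 3 log2 above the other libraries in WT replicate 4. Against WT replicate 5, both knockout values were higher for Hyou1, P4hb, Sec61b, Sec61g, Spcs2 and Selenos, and on either side for Derl1. Of the 8, Kdelr2 alone, a retrieval receptor for ER proteins, was below WT replicate 5 in both knockout libraries, at 11.54 and 11.59 against 11.89.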

How the data were processed

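Polyadenylated RNA of 2 WT and 2 knockout libraries was measured. Per the submitters' processing notes, CASAVA, HISAT2 2.1.0, featureCounts and DESeq2 were used with the genome build GRCm38. The authors deposited 1 table of normalized log2 expression per gene and library, together with the log2 fold change of the authors' own comparison and its p-value, raw and adjusted. The normalization is not given in the sources used here, no counts are given and the depth is unknown. Rows at 0 in all libraries (30280) were left out, and genes with a log2 value of at least 0 in at least 2 libraries were tested (17303). The test was limma (version 3.58.1, R 4.3.3) with trended prior variance, applied to the deposited values with no pseudocount. Benjamini-Hochberg adjustment ran over all genes tested, and a gene is called where the adjusted p is under 0.05. The fit was tested on simulated data, drawn around gene means that left out WT replicate 4, with equal spread in each library. That test does not cover a library that stands apart as WT replicate 4 does. Differences are knockout minus WT, with limma's standard error (SE). The SE comes from the moderated variance and is not the gene's own spread alone. Differences from WT replicate 5 are the fit without WT replicate 4. Differences are given for Ybx1, Atf4, Ddit3, Asns, Hspa5 and Xbp1, for members whose groups did not overlap and for members called in the deposited table, and other members are given by their values. The members, lists and tests were chosen with earlier results of these data known. Gene positions are from GENCODE M21 (GRCm38), and promoter windows from RefSeq (GRCm38.p6). Alternatives were other filters, a pseudocount of 1, median centring, quantile normalization and leaving out each library.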

Additional observations from a re-analysis of the deposited data

How the results depend on the processing

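No gene was called under the other filters, the pseudocount, median centring or quantile normalization, and leaving out 1 library at a time gave 0 to 4960 called genes, with 26 without knockout replicate 1 and 88 without knockout replicate 3. The ATF4 branch median of 0.18 was 0.74 after quantile normalization and -0.18 to 0.97 with 1 library left out. The ER branch median of 0.06 was -0.077 after median centring, 0.64 after quantile normalization and -0.28 to 0.40 with 1 library left out. Over all genes, the median of -0.09 was 0.60 with a filter of log2 5, -0.23 after median centring and 0.16 after quantile normalization. Quantile normalization turned the differences of Nupr1 to 0.81, Slc7a11 to 0.90, Hspa5 to 0.29, Hsp90b1 to 0.44 and Pdia3 to 0.49. Leaving out 1 library gave -0.068 to 2.41 for Atf4, -7.58 to 0.76 for Nupr1, -11.12 to 0.50 for Ddit3 and -7.47 to 0.78 for Slc7a11, and each of these 4 changed sign without WT replicate 4 alone. Of 23 named genes, 16 kept their direction under all 9 alternatives in which they were tested. The cause of these changes was not tested. No paired analysis was possible because the groups share no replicate numbers. Without counts, what depth limits cannot be given.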

Other observations

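A looser form of the C/EBP-ATF element, TGATGNAA on both strands, was searched after the first motif counts had been seen. It includes every match of TTGCATCA and was in the windows of 7 of 33 matched members, against 3.97% of all windows. The added genes were Asns, with a match that ends 16 bases before its start site, and Trib3, with the match after its start site.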
